A study of Mus musculus with 8 samples.

Results

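A set of 10 genes of the endoplasmic reticulum (ER) folding machinery and of the unfolded protein response were followed in mouse cardiac fibroblasts made to express Has2, an enzyme of the plasma membrane that makes hyaluronan. The members were chosen by name: Hspa5, Hsp90b1, Calr, Canx, Pdia4, Dnajb9, Sdf2l1, Xbp1, Herpud1 and Creld2. They are 10 of the 55414 genes in the deposited table, and all 10 were among the 15150 genes that passed the expression filter. The question was whether forced expression of a membrane enzyme raises ER stress, so each Has2 virus culture was set against the GFP virus culture of the same replicate number.

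Cultures given the Has2 adenovirus (n = 4) and cultures given a GFP adenovirus as the control (n = 4) came from hearts of C57BL/6J mice, with 2 male and 2 female cultures per virus. The labels call the genotype wild type, while the protocol names Has2fl/fl animals. A Cre virus that the protocol also lists is not analysed here, and the age of the mice is not given in the sources used here. All cells were used at passage 2 and shared a 24 h serum starvation, 5 h with virus, and 48 h in medium containing basic FGF and TGF-beta (20 ng/mL in the protocol). Control cells therefore also carried an adenovirus and a foreign protein, and there were no uninfected cells to compare with. Libraries held 46981231 to 55795187 counts, given below as CPM, that is, counts scaled by the effective library size.

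The ER is where secreted and membrane proteins fold. Chaperones hold unfinished chains there, lectins and disulfide isomerases help them to mature, and chains that fail are sent back to the cytosol for degradation. When unfolded chains accumulate, the sensors IRE1, PERK and ATF6 switch on the unfolded protein response, in which IRE1 splices the Xbp1 transcript into the form that encodes an active transcription factor, and ATF6 and XBP1 raise the transcription of the chaperones. Fibroblasts that secrete much collagen and fibronectin depend on this machinery. Counts per gene do not separate spliced from unspliced Xbp1, so that step was not measured here.

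ATF6 and XBP1 are known to act on the ER stress response element (ERSE), spelled CCAAT, then 9 bases of any kind, then CCACG, and on a shorter form, ERSE-II, spelled ATTGG, 1 base of any kind, then CCACG. In the promoters that RefSeq gives for these genes on GRCm38.p6, 250 bases before to 50 after the start, 5 of the 10 members held the ERSE letters on either strand (Calr, Canx, Creld2, Hsp90b1 and Hspa5), and only Herpud1 held those of ERSE-II. Over all 32851 promoters of the table the shares were 0.119% and 0.0365%. The letters TGACGTGG, searched as the core of the UPR element, were in 0 of the 10 and in 0.676% of all promoters. For this element, as for the ERSE and ERSE-II, only the exact spelling was searched, so near matches are not in these counts. The Hspa5 promoter holds TGACGTGA, which differs from TGACGTGG in the last letter alone, and promoters were not searched for that form. The ATF4-type core TGATGNAA was in Herpud1 alone, and in 3.97% of all promoters. The Hspa5 promoter (chr2:34771840-34772139, plus strand) is shown whole because Hspa5 is the standard readout of ER stress; capitals mark the fixed letters of its ERSE.
Hspa5 promoter: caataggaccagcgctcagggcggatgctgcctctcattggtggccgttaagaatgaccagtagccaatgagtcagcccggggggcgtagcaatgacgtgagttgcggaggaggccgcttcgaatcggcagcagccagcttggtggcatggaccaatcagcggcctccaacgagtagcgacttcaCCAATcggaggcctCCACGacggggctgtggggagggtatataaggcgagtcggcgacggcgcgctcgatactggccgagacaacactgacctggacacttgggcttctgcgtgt

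The matches are listed for comparison, each read 5′ to 3′ on the strand that holds the motif, with the fixed letters in capitals and the spacer in lower case. They are matches of letters and not measured binding sites. Hsp90b1 had 2 of them, and the matches of Calr and Creld2 and the second one of Hsp90b1 lay on the strand opposite to the gene. On GRCm38.p6 the positions are chr2:34772025-34772043 for Hspa5, chr10:86705638-86705656 and chr10:86705533-86705551 for Hsp90b1, chr8:84847075-84847093 for Calr, chr11:50325800-50325818 for Canx, chr15:88819520-88819538 for Creld2 and chr8:94386377-94386387 for Herpud1. Hspa5, Creld2 and Herpud1 are transcribed from the plus strand, the others from the minus strand. The deposited counts were made on a newer mouse build.
Hspa5 ERSE: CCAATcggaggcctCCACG
Hsp90b1 first ERSE: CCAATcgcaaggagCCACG
Hsp90b1 second ERSE: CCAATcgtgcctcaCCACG
Calr ERSE: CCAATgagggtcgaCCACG
Canx ERSE: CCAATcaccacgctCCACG
Creld2 ERSE: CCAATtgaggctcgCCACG
Herpud1 ERSE-II: ATTGGgCCACG

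Has2 itself rose with the Has2 virus in every pair of cultures. Has2 stood at 9533, 8406, 3209 and 4860 CPM in Has2 virus replicates 1 to 4, against 25.2, 7.36, 18.3 and 21.3 CPM in the GFP virus replicates of the same numbers (log2 fold change 8.46, SE 0.55; edgeR adjusted p = 0.0226). Its share of all counts reached 0.951% in Has2 virus replicate 1. It was 0.318% in Has2 virus replicate 3, the lowest of the 4. In edgeR's quasi-likelihood test with the replicate number as a block, Has2 was the only one of the 15150 genes called at an adjusted p under 0.05, which is 0.0066% of them, and 1134 had an unadjusted p under 0.05. Leaving out replicate 1 as a pair, either of its libraries, or GFP virus replicate 3 ended the call of Has2 itself, with 0 genes called. The library names give both cultures of a replicate number the same preparation name; the labels do not say whether the 4 preparations stem from separate animals, and p-values cover only the spread between these libraries.

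No member of the set was called higher or lower with the Has2 virus. The paired test called 0 of 10, beside 0.0066% of all genes, and 0 of 10 had an unadjusted p under 0.05. The 10 log2 fold changes lay between -0.41 and 0.20, 4 above and 6 below 0, with a median of -0.05, beside -0.02 over all genes tested. Adjusted p-values ran from 0.649 to 0.946 (edgeR). The 95% intervals of this paired fit were narrow. For every member the upper bound was below 1.5-fold, the highest being 1.35-fold for Calr. The lowest lower bound was 0.543-fold, for Hsp90b1. Without the replicate block the standard errors were larger, up to 0.54 for Sdf2l1, against 0.15 with it. For no member did the values of the 4 Has2 virus cultures all lie above, or all below, those of the 4 GFP virus cultures.

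**Figure D1:**
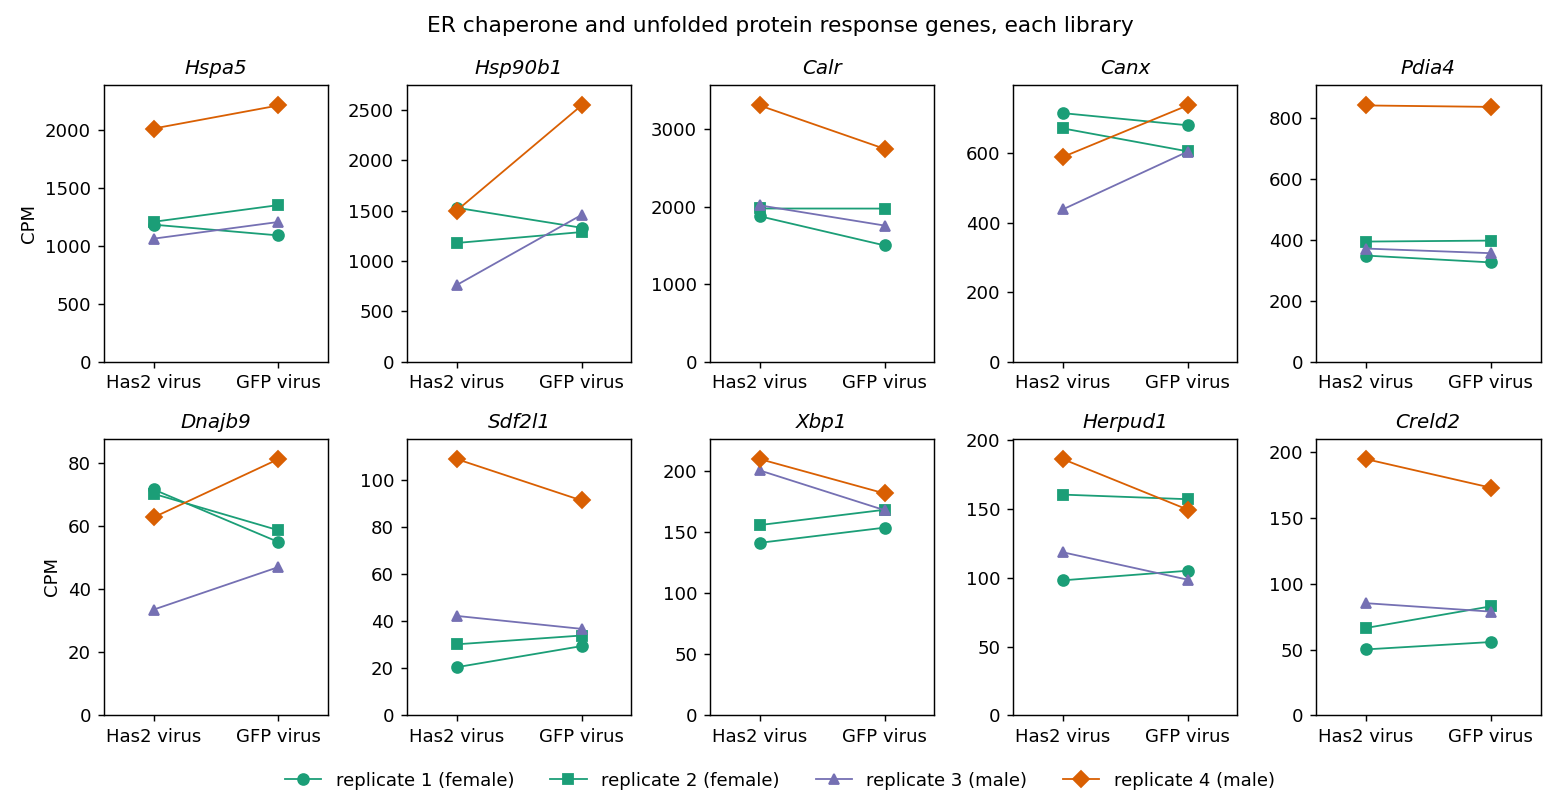
CPM of each member (vertical axes from 0) in the 4 Has2 virus libraries and the 4 GFP virus libraries, with lines joining libraries of the same replicate number. The 2 groups overlap in all 10 genes, and replicate 4 is the highest culture in both groups for Hspa5, Calr, Pdia4, Sdf2l1, Xbp1 and Creld2.

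Among the luminal chaperones, Hspa5 encodes BiP, the Hsp70 of the ER and the best known marker of ER stress. It was measured at 1184, 1209, 1063 and 2014 CPM in Has2 virus replicates 1 to 4, against 1091, 1353, 1207 and 2213 CPM in the GFP virus replicates. It was higher in 1 pair and lower in 3, and its log2 fold change of -0.09 (SE 0.10; 95% interval -0.33 to 0.14; edgeR adjusted p = 0.792) puts the upper bound at 1.10-fold. Hsp90b1 encodes GRP94, the Hsp90 of the ER. Its levels were 1530, 1180, 762 and 1502 CPM with the Has2 virus, against 1332, 1289, 1459 and 2547 CPM with the GFP virus, so that the Has2 to GFP ratio was 1.15 and 0.916 in pairs 1 and 2 but 0.522 and 0.59 in pairs 3 and 4. Its log2 fold change of -0.41 (SE 0.20; edgeR adjusted p = 0.649) was the most negative of the 10, and its standard error was the largest. With the trend of GC content and transcript length taken out of every library, as described below, it was -0.13; that fit called 0 of 10 members, beside 0.0132% of all genes.

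Both partners of BiP on the list were low in abundance. Dnajb9 encodes ERdj4, a J-domain co-chaperone of BiP, and had 71.6, 70.2, 33.5 and 62.8 CPM in Has2 virus cultures, against 54.9, 58.7, 47.02 and 81.3 CPM in GFP virus cultures (log2 fold change -0.05, SE 0.17). It was higher in pairs 1 and 2 and lower in pairs 3 and 4. Sdf2l1 encodes a small luminal protein found in complexes with BiP and its J-domain partners. It had 20.4, 30.1, 42.2 and 109 CPM in Has2 virus cultures, against 29.4, 33.9, 36.7 and 91.1 CPM in GFP virus cultures (log2 fold change -0.06, SE 0.15). Here the split was turned round, with lower values in pairs 1 and 2 and higher ones in pairs 3 and 4.

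Calr and Canx encode calreticulin and calnexin, the soluble and the membrane-bound lectin that hold newly made glycoproteins. Calr was the only member with one direction in all 4 pairs. It reached 1878, 1978, 2019 and 3309 CPM with the Has2 virus, against 1502, 1977, 1758 and 2749 CPM with the GFP virus. The ratios were 1.25, 1.00, 1.15 and 1.20 in pairs 1 to 4, and the log2 fold change of 0.20 (SE 0.10; 95% interval -0.04 to 0.44; edgeR adjusted p = 0.65) did not pass the test. Canx was at 715, 671, 438 and 589 CPM with the Has2 virus, against 680, 605, 604 and 737 CPM with the GFP virus, lower in the male pairs and higher in the female ones (log2 fold change -0.14, SE 0.13). Once the trend was taken out Canx was at 0.11 and Dnajb9 at 0.30, so the sign of both depended on that step.

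Pdia4 encodes ERp72, a disulfide isomerase with several thioredoxin domains, and gave the tightest match between the viruses. Its levels were 348, 394, 371 and 840 CPM with the Has2 virus, against 325, 397, 356 and 835 CPM with the GFP virus. The pair ratios stayed between 0.992 and 1.07, and the log2 fold change was 0.04 (SE 0.08; 95% interval -0.16 to 0.24). Creld2, whose product is an ER protein with epidermal growth factor-like domains that is made under ER stress, had 50.2, 66.4, 85.4 and 195 CPM with the Has2 virus, against 55.8, 82.9, 78.9 and 173 CPM with the GFP virus (log2 fold change -0.05, SE 0.11).

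Xbp1 encodes the transcription factor of the IRE1 branch and is itself a target of ATF6. It had 141, 155, 200.1 and 209 CPM in Has2 virus cultures, against 153, 168, 168 and 181 CPM in GFP virus cultures (log2 fold change 0.06, SE 0.10). Herpud1 encodes a membrane protein of the ER that assembles the degradation complex around the ubiquitin ligase HRD1. It had 98.1, 160.4, 119 and 186 CPM in Has2 virus cultures, against 105, 157, 98.6 and 149.5 CPM in GFP virus cultures (log2 fold change 0.13, SE 0.10; edgeR adjusted p = 0.722). Both genes were higher with the Has2 virus in pairs 3 and 4; in pairs 1 and 2 the ratio of Has2 virus to GFP virus was 0.919 and 0.926 for Xbp1, and 0.934 and 1.02 for Herpud1.

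**Figure D2:**
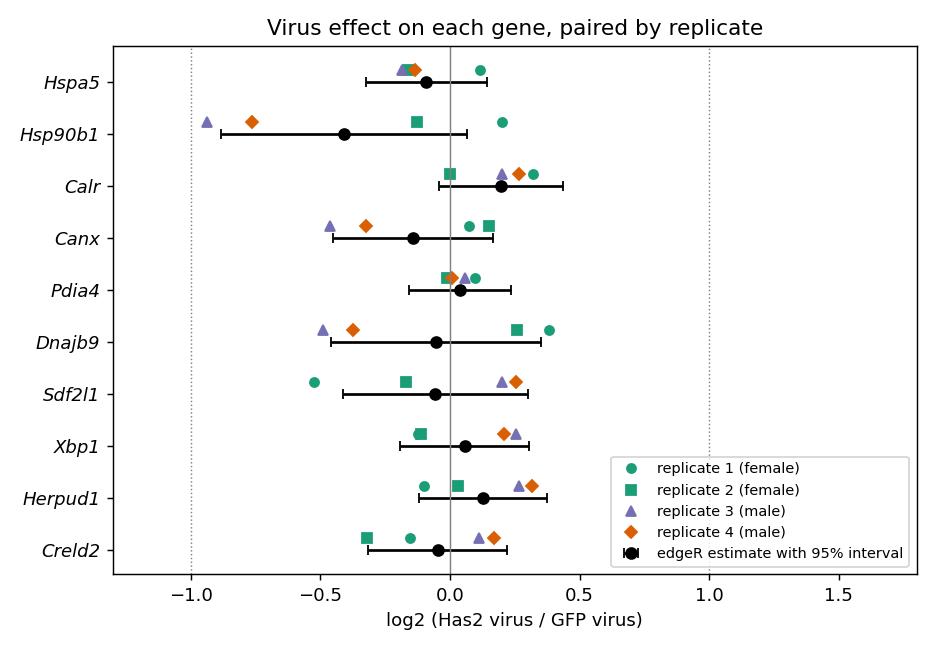
Horizontal axis: log2 of the ratio of Has2 virus to GFP virus for each member. Black points with bars are the edgeR estimates with 95% intervals, coloured marks the ratios of CPM within the 4 pairs, and dotted lines mark 2-fold. All 10 intervals, from the fit with the replicate block, include 0 and lie within 2-fold, from 0.543-fold to 1.35-fold.

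Levels per length were compared as CPM per kilobase of the longest transcript. In Has2 virus cultures Calr averaged 1051, far above Hsp90b1 (386), Hspa5 (372), Pdia4 (203) and Canx (141); Xbp1 (82.9), Creld2 (72.7), Herpud1 (72.1), Sdf2l1 (45.4) and Dnajb9 (24.2) followed. In GFP virus cultures the order of the genes was the same throughout, with Calr at 914 and Dnajb9 at 24.6. Hsp90b1 was at 514 and Hspa5 at 399 there. With both viruses Calr stood above Hsp90b1, Hspa5 above Pdia4, and Canx above Xbp1 by more than the larger SD of the 2 genes, and no other neighbours in the order did. Opposite-strand or overlapping annotated genes touched Hsp90b1, Pdia4, Dnajb9 and Herpud1, but over the 8 libraries the largest of them held 711 counts, beside 580127 for Hsp90b1. Calr has an annotated pseudogene, so some of its reads may have been divided.

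The widest spread among the cultures came with replicate 4 and not with the virus. Replicate 4, one of the male pairs, held the highest value of its group for 7 of the 10 members with the Has2 virus and for 9 of 10 with the GFP virus. Over all genes tested it was highest for 19.6% with the Has2 virus and 21.3% with the GFP virus. Set against the median of replicates 1 to 3 of the same virus, Sdf2l1 in replicate 4 was 3.61 times as high with the Has2 virus and 2.69 times with the GFP virus. For Creld2 these ratios were 2.93 and 2.19, for Pdia4 2.26 and 2.35, and for Hspa5 1.70 and 1.83. Herpud1, Xbp1, Canx and Dnajb9 stood less apart, between 0.877 and 1.57 times. This contrast was noticed in the data and is given as a description; the labels do not say how replicate 4 differed beyond its number, sex and preparation identifier. Has2 itself was not highest there (4860 CPM, against 9533 CPM in replicate 1).

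Marker genes of other cell types overlapped between the viruses. The 10 macrophage markers summed to 856 to 2310 CPM with the Has2 virus and 904 to 2202 CPM with the GFP virus, higher with the Has2 virus in 2 of 4 pairs, and all 10 passed the expression filter. The 8 fibroblast markers, led by collagens, summed to 19350 to 33752 CPM and 19877 to 32112 CPM with the Has2 and GFP viruses. The 7 lymphocyte and plasma cell markers did not exceed 0.144 CPM in sum in any library, with Cd3g at 0, and none passed the filter. The 8 cardiomyocyte markers summed to at most 9.17 CPM, with Myl7 at 0, and the 8 endothelial markers to at most 54.4 CPM. In replicate 4 the macrophage sum was 2310 CPM with the Has2 virus and 1992 CPM with the GFP virus, and in replicate 1 it was 2081 and 2202 CPM. The fibroblast sum was lowest in replicate 4 with both viruses (19350 and 19877 CPM). The 5 pericyte markers summed to 55.4 CPM there with the Has2 virus, the lowest of its group, and to 58.53 CPM with the GFP virus, within a range of 48.2 to 87.1 CPM. The 8 mesothelial or epithelial markers summed to 6.25 CPM in replicate 4 with the Has2 virus and 5.10 CPM with the GFP virus, and did not exceed 6.25 CPM in any library. The part of these cells in the levels was not tested. In these bulk samples a change in the number of cells of a type and a change in RNA per cell cannot be told apart.

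The genes whose levels followed the members most closely over the 8 libraries were Dnajb11 (Pearson's r = 0.96 with the mean standardized level of the 10 members), Edem1 (0.95), Plekhn1 (0.94), Chn2 (0.91) and Abcg1 (0.91). The libraries share pairs and the r values carry no p. The mean standardized level of the members was 1.12 and 1.22 in replicate 4 with the Has2 and GFP viruses, and below 0 in every other library. These r values therefore draw much on replicate 4, and none was computed without it. Dnajb11 was at 233, 233, 237 and 323 CPM with the Has2 virus, against 232, 267, 247 and 318 CPM with the GFP virus. Within the list, Sdf2l1 and Creld2 (r = 0.99) and Hspa5 and Pdia4 (r = 0.97) ran together, whereas Canx and Xbp1 were opposed (r = -0.64).

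The other genes of the ER stress pathways likewise gave no call. Over 7 lists with 97 genes tested, 0 were called in either direction, beside 0.0066% of all genes; 44 had positive and 53 negative fold changes, and 4 had an unadjusted p under 0.05. The sensors and activators had a median log2 fold change of 0.13 over 9 genes, 7 of them positive. Their smallest p-values belonged to Creb3l1, a relative of ATF6 that acts on secretory and collagen genes, at 104 ± 11.3 CPM with the Has2 virus and 88.9 ± 13.1 CPM with the GFP virus (SD, n = 4; log2 fold change 0.23, SE 0.09; edgeR adjusted p = 0.648), to Mbtps1, the site-1 protease that cleaves ATF6 (0.19, SE 0.09), and to Ern1, which encodes IRE1 (0.21, SE 0.11). Creb3l1 and Mbtps1 were higher in 4 of 4 pairs. With the trend of GC content and length removed the median of this list was 0.10, with Creb3l1 at 0.17, Mbtps1 at 0.14 and Ern1 at 0.15. In the PERK branch, 7 of 11 genes were positive, with a median of 0.02 as counted and -0.01 with the trend removed. Atf3 was at 10.7 ± 3.35 CPM with the Has2 virus and 8.47 ± 2.33 CPM with the GFP virus (SD, n = 4; log2 fold change 0.32, SE 0.12; edgeR adjusted p = 0.648). Chac1, a glutathione-degrading enzyme induced through ATF4 and CHOP, had 0.26 (SE 0.11), and Ppp1r15a, which encodes the phosphatase subunit GADD34, 0.17 (SE 0.09). These 3 genes were higher in 4 of 4 pairs. Like Creb3l1 and Mbtps1, they were named for small p-values in the same paired fit, so the pairs add no separate support. Among the genes named below for the other lists, Uggt1, Faf2 and Syvn1 were higher and Dnajc10 and Fkbp14 lower in 4 of 4 pairs. The share over all genes was not counted. With the trend removed Atf3 was at 0.32, Chac1 at 0.23 and Ppp1r15a at 0.12.

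Of 20 genes of entry into the ER, 13 had negative fold changes, with a median of -0.11; of all 15150 genes 8296 were negative. Srp54a, a signal recognition particle subunit, had a log2 fold change of -0.68 (SE 0.20; edgeR adjusted p = 0.648) at 3.45 ± 1.13 CPM with the Has2 virus and 5.38 ± 0.97 CPM with the GFP virus (SD, n = 4); the mouse genome holds close copies of it, so its reads may have been split. The signal peptidase subunits Sec11c and Spcs3 had -0.37 (SE 0.12) and -0.35 (SE 0.18). After the trend correction Srp54a was at -0.43, Sec11c at -0.30 and Spcs3 at -0.02, and the list median at 0.02. The other chaperones had a median of -0.05 over 18 genes. Dnajc10, a reductase of the ER, was at -0.23 (SE 0.10). The prolyl isomerases Fkbp7 and Fkbp14 were at -0.22 (SE 0.11) and -0.13 (SE 0.08). Without the trend Dnajc10 was at -0.09, Fkbp7 at 0.15 and Fkbp14 at 0.10.

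Disulfide isomerases and oxidases had a median of -0.06 over 12 genes, and of 0.03 with the trend removed. Pdia3, the isomerase that works with calnexin and calreticulin, was at 1462 ± 242 CPM with the Has2 virus and 1738 ± 299.7 CPM with the GFP virus (SD, n = 4; log2 fold change -0.25, SE 0.13; -0.17 with the trend removed). The membrane-bound isomerases Tmx3 and Tmx1 had -0.51 (SE 0.25) and -0.26 (SE 0.15), and -0.06 and 0.07 with the trend removed. The N-glycan folding cycle had a median of -0.03 over 8 genes, and of 0.02 with the trend removed. Its members with the smallest p-values were Uggt1, which senses misfolded glycoproteins (0.17, SE 0.09), the glucosidase subunit Ganab (0.12, SE 0.10) and the cargo receptor Lman1 (-0.08, SE 0.10). In ER-associated degradation the median was 0.00 over 19 genes, and 0.03 with the trend removed. Faf2 was at 0.13 (SE 0.08), Sel1l at 0.12 (SE 0.09) and Syvn1, which encodes HRD1, at 0.11 (SE 0.09).

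**Figure D3:**
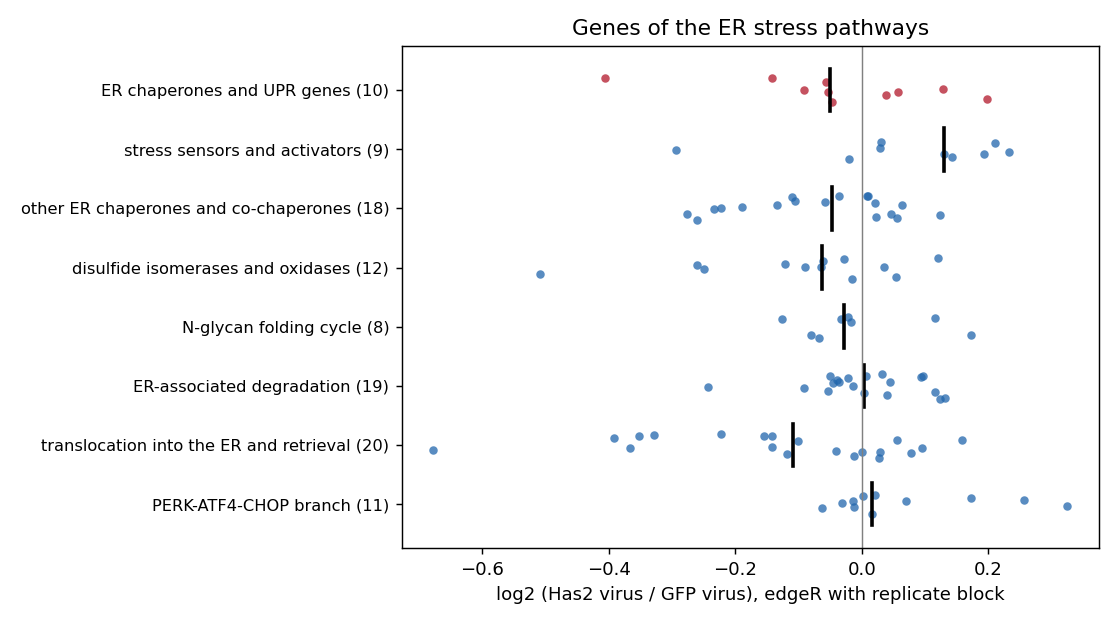
Horizontal axis: log2 fold change, Has2 virus over GFP virus, of every tested gene in the 10 members (red) and 7 pathway lists (blue), with the number of genes in brackets; black bars are medians and the vertical scatter has no meaning. Medians lie between -0.11 (entry into the ER) and 0.13 (sensors and activators), and no gene was called.

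The response of the members to the virus differed between male and female pairs. In a fit with a separate virus effect for each sex, 6 of 10 members were called for the difference (edgeR adjusted p under 0.05), beside 29.5% of all genes, and the direction was divided. Without the replicate block 0 of 10 members and 0% of all genes were called, with 2014 genes at an unadjusted p under 0.05. In the paired fit Hsp90b1, Canx and Dnajb9 had lower fold changes in males, and Sdf2l1, Xbp1 and Creld2 higher ones. Each sex had 2 pairs, whose preparation names also begin with another letter in males than in females, so that sex and preparation cannot be told apart. Taken alone, the male effect was called for 4 of 10 members (Hsp90b1, Canx and Dnajb9 lower, Herpud1 higher), beside 24.9% of all genes, and the female effect for 1 of 10, Dnajb9, beside 7.23%.

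Hsp90b1 had a log2 fold change of -0.85 (SE 0.11) in male pairs and 0.04 (SE 0.11) in female pairs, a difference of -0.89 (SE 0.15; edgeR adjusted p = 0.00162). Dnajb9 was at -0.43 (SE 0.09) in male and 0.32 (SE 0.08) in female pairs (difference -0.75, SE 0.12; edgeR adjusted p = 0.00106), and Canx at -0.39 and 0.11 (difference -0.50, SE 0.13; edgeR adjusted p = 0.014). On the other side, Sdf2l1 was at 0.23 (SE 0.10) in male and -0.34 (SE 0.10) in female pairs, with a difference of 0.57 (SE 0.14; edgeR adjusted p = 0.0115). Creld2 was at 0.14 and -0.24 (difference 0.38; edgeR adjusted p = 0.0374) and Xbp1 at 0.23 and -0.12 (difference 0.35; edgeR adjusted p = 0.0458). For Herpud1 the difference was 0.33 (SE 0.12; edgeR adjusted p = 0.0632). Hspa5 gave -0.14 (95% interval -0.45 to 0.18), Calr 0.07 (-0.26 to 0.40) and Pdia4 -0.01 (-0.29 to 0.27).

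These differences lined up with the base composition of the transcripts. The 3 genes lower in males were those with the lowest GC content, Dnajb9 (40.6%), Hsp90b1 (42.1%) and Canx (42.2%). The 3 called higher in males were among the 4 with the highest, Sdf2l1 (56.7%), Creld2 (54.8%) and Xbp1 (53.0%), while Hspa5 (45.6%), Pdia4 (47.6%) and Calr (50.0%) lay between. Over the 10 members Spearman's rho between GC content and the difference was 0.99, and over all genes tested 0.62; genes share libraries and are no replicates, so no p is given. With a smooth trend of GC content and length removed from each library, 0 of the 10 members were called for the difference, beside 10.6% of all genes, and the smallest adjusted p was 0.164 (edgeR), for Hsp90b1, whose difference was then -0.31. Dnajb9, at -0.43 in males as counted, was then at 0.25 in males (edgeR adjusted p = 0.0426) and 0.34 in females (edgeR adjusted p = 0.036).

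**Figure D4:**
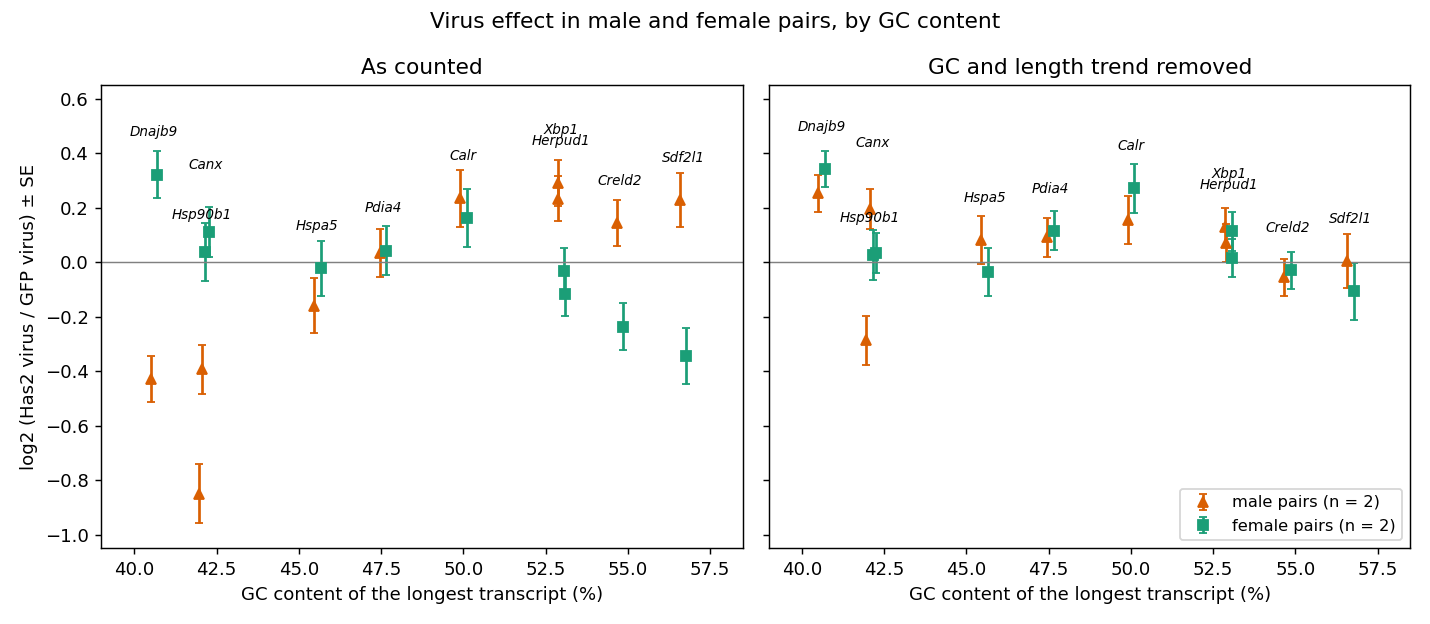
Vertical axis: log2 fold change, Has2 virus over GFP virus, with its standard error, in male pairs (triangles, n = 2) and female pairs (squares, n = 2); horizontal axis: GC content of the longest transcript. As counted (left) the male and female values cross near Pdia4 (47.6% GC), and the 10 differences lie between -0.89 (Hsp90b1) and 0.57 (Sdf2l1); with the GC and length trend removed (right) they lie between -0.31 and 0.16.

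Some of the calls by sex rested on the settings. The difference of Xbp1 was not called with DESeq2 (adjusted p = 0.0543), with RLE scaling in edgeR (adjusted p = 0.0503) or with no filter on low counts in edgeR (adjusted p = 0.116), and that of Creld2 was not called without the filter (adjusted p = 0.0797). With the replicate block, a library left without its partner adds nothing on the virus effect. The fits that left out a library therefore rest on the same pairs as the fit without its pair, and are no separate checks. In all 12 such fits one sex kept 1 pair, so they cannot show whether a call rests on single libraries, and only effect sizes are given. The differences of Hsp90b1, Canx, Dnajb9, Sdf2l1, Xbp1 and Creld2 kept their signs in all 12. That of Dnajb9 ran from -0.810 to -0.672, and that of Canx from -0.592 to -0.432. The difference of Sdf2l1 was 0.35 without either library of replicate 1. In the pathway lists, 30 of the 97 genes were called for the difference as counted (19 higher and 11 lower in males), beside 29.5% of all genes, and 10 with the trend removed (9 higher and 1 lower), beside 10.6%. Only the total shares are near those of all genes. Over all genes 1748 were higher and 2722 lower in males as counted, and 899 higher and 711 lower with the trend removed. The split by direction was not tested.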

How the data were processed

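Poly(A) RNA libraries of 8 fibroblast cultures were prepared with a kit that keeps strand, per the labels' protocols. What the authors deposited is 1 table of raw counts with 55414 Ensembl genes, all of whose 8 columns were used. Per the submitters' processing notes, FastQC 0.10.1 and HTSeq 0.10.0 were used on mm39; aligner, annotation release and strand setting: not given in the sources used here. Symbols, GC content and the length of the longest transcript came from GENCODE M21, an older build; 52081 identifiers matched.

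Groups came from the sample titles. Counts were tested with edgeR 4.0.16 (R 4.3.3), quasi-likelihood F-test, TMM scaling, default expression filter, and the replicate number as a block; calls are at adjusted p under 0.05 (Benjamini-Hochberg, 15150 genes). Library names show 1 preparation per replicate number. Deviations of same-numbered libraries from their group's mean had correlations of 0.69, 0.60, 0.60 and 0.40 for replicates 1 to 4. Standard errors are the fold change over the root of F. The difference between sexes was an interaction term. The trend correction removed, per library, splines (5 degrees of freedom for GC content and 5 for log2 length). The script was tested on simulated counts. Libraries of a group all differed by more than sampling noise (chi-square 41.8 to 333 per degree of freedom). Median standard error was 0.14 over all genes.

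The members, lists and rules were chosen with earlier results of these data known. Named genes are the members, the 3 genes of smallest p in each pathway list, and the 5 genes of at least 5 CPM most correlated with the members (log2 CPM, pseudocount 2). Alternatives were no block, DESeq2 1.42.0, limma-voom (limma 3.58.1), other scalings and filters, the trend correction and leaving out libraries or pairs.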

Additional observations from a re-analysis of the deposited data

Results flagged for a closer look

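Among 22 sets of 4 libraries (the 10 members and Has2, each virus apart), 6 had 1 library far from the other 3 by Dixon's criterion, and all 6 were replicate 4; chance flags about 1 set in 20, and the genes share libraries. With the Has2 virus these were Hspa5 at 2014 CPM, Calr at 3309 CPM and Pdia4 at 840 CPM. With the GFP virus they were Hsp90b1 at 2547 CPM, Pdia4 at 835 CPM and Sdf2l1 at 91.1 CPM.

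The virus effect differed between male and female pairs in the paired edgeR test for 6 members. The differences, male minus female on the log2 scale, were -0.89 for Hsp90b1, -0.50 for Canx, -0.75 for Dnajb9, 0.57 for Sdf2l1, 0.35 for Xbp1 and 0.38 for Creld2, beside 29.5% of all genes called. The transcript GC content of these genes moved with the differences, and 0 of the 6 were called once the trend of GC content and length was taken out.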

How the results depend on the processing

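The count of members called for the virus was 0 in all 21 other fits run, and so was that of the pathway genes. Among them, the fits with the block that left out a library rest on the same pairs as the fit without its pair. A count of 0 does not show that no member changed, since in the paired fit the rise of Has2 itself gave an adjusted p of 0.0226 (edgeR). Without replicate 1, without either of its libraries, or without GFP virus replicate 3, not even Has2 was called. The median log2 fold change of the members (-0.05) was 0.026 with no replicate block, 0.073 with the GC and length trend removed and the block, and 0.066 with the trend removed and no block, the last a choice made after seeing the data. It was -0.033 to 0.034 over fits that left out libraries or pairs. The number of genes called for the virus (1) was 61 with DESeq2, 118 with no filter on low counts, 6 with a minimum mean of 1 CPM and 2 with the trend removed, all with the block, and 0 to 1 with libraries left out; the cause was not tested. The log2 fold change of Has2 was 7.95 to 8.83 with libraries left out. For the difference between sexes, 4470 genes and 6 members were called; with no replicate block the counts were 0 and 0, with the trend removed 1610 and 0, with both 0 and 0, with DESeq2 3577 and 5, and with libraries left out 2238 to 4972 and 2 to 5.

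These signs of the virus effect over all pairs and of the sex difference turned. Of the turned values none was called, although the sex differences of Canx and Creld2 were called before the trend was removed. The male effect of Dnajb9 also turned, with a call both times (-0.43 as counted, 0.25 with the trend removed). That of Canx turned from -0.39, called, to 0.19, not called. Turns without a call came in males for Hspa5 (-0.16 to 0.080) and Creld2 (0.14 to -0.055). In females they came for Xbp1 (-0.12 to 0.016) and Herpud1 (-0.034 to 0.11). With no replicate block Sdf2l1 was at 0.076 and Creld2 at 0.022. With the trend removed Hspa5 was at 0.021 with and 0.028 without the block, Canx at 0.11 and 0.12, and Dnajb9 at 0.30 and 0.29. The sex difference then was 0.12 and 0.14 for Hspa5, -0.12 and -0.10 for Calr, 0.16 and 0.16 for Canx, -0.025 and -0.035 for Creld2, and without the block -0.0013 for Herpud1. The sex difference of Pdia4 was 0.011 with scaling that left out Has2 counts. With libraries left out, the virus effect ran from -0.18 to 0.11 for Dnajb9, -0.16 to 0.13 for Sdf2l1, -0.0076 to 0.15 for Xbp1 and -0.12 to 0.045 for Creld2, and the sex difference from -0.28 to 0.020 for Hspa5, -0.088 to 0.25 for Calr and -0.087 to 0.062 for Pdia4. Intervals of the members lay within 2-fold each way in the fit with the replicate block, and this limits what these 8 libraries can show. With no block the standard error of every member was larger. It was 0.54 for Sdf2l1, 0.46 for Creld2 and 0.37 for Pdia4, against 0.15, 0.11 and 0.08 with the block.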
